A study of Mus musculus with 576 samples.

Results

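The genes described are 10 Wnt pathway genes of the mouse, chosen by symbol out of the 36658 gene identifiers in the 3 count tables of the series. Of these, 8 code for secreted modulators of Wnt signalling (Sfrp1, Sfrp2, Frzb, Sfrp5, Dkk2, Dkk3, Wif1 and Rspo3) and the others, Axin2 and Lef1, are transcribed in response to it. All 10 were found in all 3 tables. Their levels were followed across epithelial, mesothelial and mesenchymal cells of the embryonic pancreas at day 12.5 and across 3 reporter lines.

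Wnt proteins are secreted lipid-modified ligands that bind Frizzled receptors together with the coreceptors LRP5 and LRP6. In the canonical branch this stabilizes β-catenin, which enters the nucleus and activates transcription with TCF/LEF factors. Secreted frizzled-related proteins and WIF1 bind Wnt ligands outside the cell, Dickkopf proteins act at the LRP coreceptors, and R-spondins keep Frizzled receptors at the cell surface. In the pancreas, Wnt signals pass between the mesenchyme, the mesothelium that covers it and the epithelium that gives rise to acinar, duct and endocrine cells.

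The study sorted GFP-positive cells from dissected dorsal pancreas of 3 lines on a C57BL/6J background into 96-well plates and sequenced each cell by Smart-seq2, a full-length method without molecular identifiers. In the Nkx2.5-Cre;mTmG line (plates 6A and 6B) and the Nkx3.2-Cre;mTmG line (plates 7A and 7B), Cre expressed from the Nkx2.5 or Nkx3.2 gene recombines a Rosa26 reporter, so that GFP marks cells that have expressed the driver and their descendants. In the Prox1-GFP line (plates 8A and 8B), EGFP is expressed from a Prox1 transgene, and no Cre is present. No other treatment or mutation was labelled. No embryo or litter was named, so each line was treated as 1 sample, neither cells nor plates were used as replicates, and no p-value is given. The libraries of the Prox1-GFP line were numbered apart from the others, and every plate held 1 line, so that line, plate and batch cannot be told apart between lines.

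Of 576 wells, 549 passed the filters on genes, counts and mitochondrial share. Estimated counts per passing cell ran from 224814 to 1512736, with a median of 1056674, 896115 and 808006 in the 3 lines. Clustering without the Wnt genes gave 56 tip-like, 30 trunk-like and 19 endocrine-like epithelial cells, all of the Prox1-GFP line, 28 mesothelial-like cells, with 5 of the Nkx2.5-Cre line and 23 of the Nkx3.2-Cre line, and 414 mesenchymal cells, 78 of them of the Prox1-GFP line and the others in equal number of the Nkx lines. Clusters were named from marker lists, so the markers describe the classes and are no check of them. All 8 epithelial markers reached 10 CPM (counts of a gene per 1000000 counts) in tip-like and trunk-like cells and 7 of 8 in endocrine-like cells. In mesothelial-like cells 7 of 8 mesothelial markers did so (Msln did not), but so did 7 of 9 mesenchymal markers. All 10 mural markers did so in mural-like cells, and between 6 and 8 of them in the other mesenchymal states. Their sum was 2722 CPM in mural-like cells and, highest among those other states, 1196 CPM in the Eya4 cluster. Prox1 was detected in every epithelial cell, at 1061, 2609 and 977 CPM in tip-like, trunk-like and endocrine-like cells, and at 4.22 to 402 CPM in the mesenchymal states of that line with at least 5 cells, where between 1 of 6 cells (mural-like) and 7 of 10 cells (Megf10 cluster) held a count of it. Nkx2-5 and Nkx3-2 had no count in mesothelial-like cells of either Nkx line. The 2 remaining cells of the Prox1-GFP line clustered with the mesothelium but held Neurog3 at 2039 and 2104 CPM and no Upk3b, and were left out of all classes. These 2 cells held no count of any of the 10 genes other than Dkk2 at 1.08 CPM in 1 of them.

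A level below is the CPM of a group's counts added over its cells, and its 95% Poisson interval, like the exact binomial interval of a share of cells, covers counting error only. A gene was called higher or lower when the ratio of 2 levels was 2-fold or more in the same direction on both plates (over the line where a plate had fewer than 5 cells) with at least 10 CPM in the higher group. A group without a count was set at 3 counts over the group. Its fold follows from that setting and is not an interval limit. Where no cell was positive, the share given as allowed is 3 over the number of cells, not the exact binomial limit. Every call is a description of these libraries. Gene positions are those of GENCODE M21 on GRCm38.

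The upstream sequences of the genes were read from a RefSeq table on GRCm38.p6, which matched starts for 7 of the 10 genes, with 10 starts in all since Lef1 has 4. No sequence is shown for Sfrp1, Dkk3 and Rspo3. The 250 bases before a start are shown for Sfrp2, which was mainly mesenchymal, for Sfrp5, which was nearly absent outside the epithelium, and for the feedback genes Axin2 and Lef1. Capitals mark a TCF/LEF core motif, searched as CTTTGAA or CTTTGAT or CTTTGTA or CTTTGTT on both strands.
Sfrp2, chr3:83766071-83766320, plus strand: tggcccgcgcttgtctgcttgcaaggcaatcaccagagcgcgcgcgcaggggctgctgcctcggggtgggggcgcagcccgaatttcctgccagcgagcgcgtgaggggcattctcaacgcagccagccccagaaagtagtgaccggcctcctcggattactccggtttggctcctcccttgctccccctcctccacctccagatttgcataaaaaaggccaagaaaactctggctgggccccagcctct
Sfrp5, chr19:42202253-42202502, minus strand: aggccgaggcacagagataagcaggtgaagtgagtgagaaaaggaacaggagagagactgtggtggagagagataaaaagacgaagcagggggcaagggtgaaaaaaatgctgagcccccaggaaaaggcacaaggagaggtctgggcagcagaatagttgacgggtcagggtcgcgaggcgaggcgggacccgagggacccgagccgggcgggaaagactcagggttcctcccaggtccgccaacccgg
Axin2, chr11:108920099-108920348, plus strand: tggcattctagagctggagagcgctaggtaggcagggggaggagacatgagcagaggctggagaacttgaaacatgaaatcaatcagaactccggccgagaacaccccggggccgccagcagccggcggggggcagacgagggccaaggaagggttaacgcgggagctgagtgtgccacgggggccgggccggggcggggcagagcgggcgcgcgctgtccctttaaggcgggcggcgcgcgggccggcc
Lef1, its most downstream start, chr3:131156044-131156293, plus strand: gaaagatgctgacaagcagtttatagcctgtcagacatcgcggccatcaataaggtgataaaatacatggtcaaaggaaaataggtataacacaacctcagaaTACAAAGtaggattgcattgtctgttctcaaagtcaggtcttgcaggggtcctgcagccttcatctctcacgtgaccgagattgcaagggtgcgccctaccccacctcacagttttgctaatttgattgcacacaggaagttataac
The only match in the 10 windows was in this last one, where TACAAAG is the reverse complement of CTTTGTA. Of 32851 RefSeq promoter windows of the same length, 14.84% held at least 1 of the 4 motifs, so that the single match is a description of these windows only. The windows differed in base composition, with a GC content of 69.2% for Axin2, 63.6% for Sfrp2, 59.6% for Sfrp5 and 44.8% for the Lef1 start shown.

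The plot of summed levels and detection gives all 10 genes in each state and line. Sfrp1 stood far above the others in mesenchymal cells. Compared per kilobase of exon, since the genes differ in length, Sfrp1 reached 228 CPM per kilobase in mesenchymal cells of the Prox1-GFP line, against 25.2 for Sfrp2, 12.9 for Dkk2, 11.97 for Lef1 and 10.1 for Dkk3. The remaining genes were lower in the same cells, with 3.77 CPM per kilobase for Frzb, 3.53 for Axin2, 2.88 for Rspo3 and 0.844 for Wif1, and no count of Sfrp5. In the epithelium of the same line the order was another, with Sfrp5 at 10.3 CPM per kilobase, Sfrp2 at 2.57, Sfrp1 at 1.98, Axin2 at 1.04 and the others under 1, down to 0.0683 for Lef1. A mesenchymal cell held a median of 3, 3 and 3.5 of the 10 genes in the Nkx2.5, Nkx3.2 and Prox1-GFP lines, and an epithelial cell held a median of 1.

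**Figure D1:**
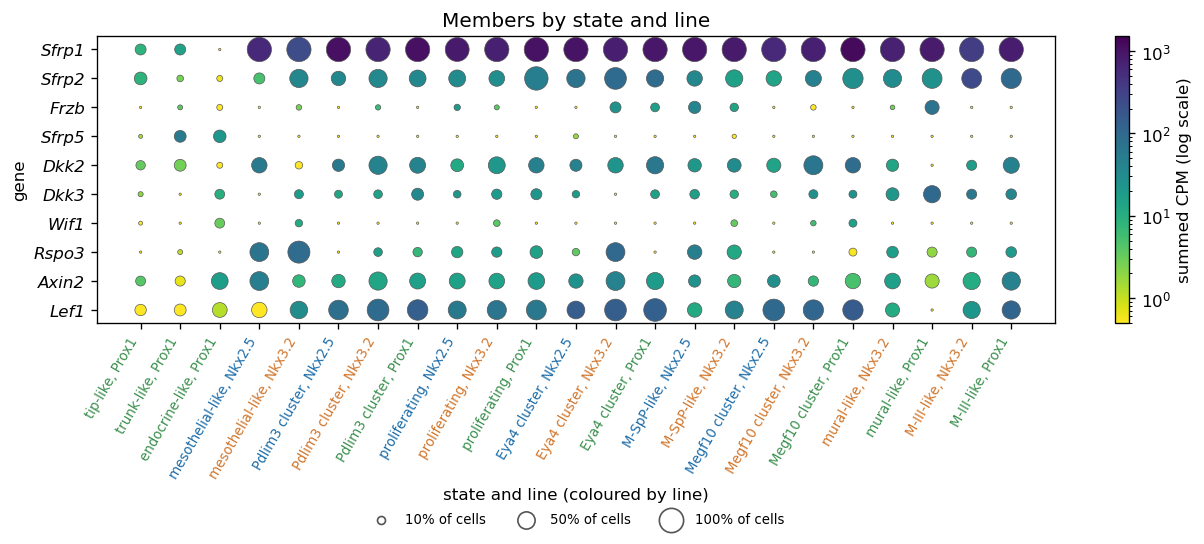
Summed level and detection of the 10 genes (rows) in each state and line (columns, coloured by line). The colour of a point is the summed CPM on a log scale and its area grows with the percent of cells with at least 1 count. Sfrp1 is high in every mesenchymal and mesothelial-like column, Sfrp5 is above 10 CPM in trunk-like and endocrine-like cells alone, and Rspo3 is highest among the mesothelial-like columns and the 5 Eya4 cells of the Nkx3.2-Cre line.

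The comparison of mesenchymal with epithelial cells was made within the Prox1-GFP line, whose plates 8A and 8B held both classes. Among all 11035 genes with at least 10 CPM in either class, 9.73% were called higher in mesenchyme and 12.5% lower. Of the 10 genes, 8 reached that level, and 7 were called higher (Sfrp1, Sfrp2, Frzb, Dkk2, Dkk3, Axin2 and Lef1) and 1, Sfrp5, lower. The median log2 ratio was 3.60 over these 8 genes and -0.01 over all genes. The median counts per cell were 788866.5 in mesenchymal and 824793 in epithelial cells.

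Sfrp1 (ENSMUSG00000031548, chromosome 8, 23411502 to 23449632), a secreted frizzled-related protein that binds Wnt ligands, was at 835 CPM on plate 8A and 1106 CPM on plate 8B in mesenchymal cells, and at 5.21 and 12.3 CPM in epithelial cells. Over both plates the levels were 995 CPM (95% interval 987 to 1003) and 8.64 CPM (8.04 to 9.27), a 115.2-fold difference that ran from 90.1-fold to 160-fold between plates. It was detected in 77 of 78 mesenchymal cells and in 16.2% of epithelial cells. Single mesenchymal cells ran from 0 to 2813 CPM with a median of 960 CPM, while the highest epithelial cell stood at 150 CPM, so that a few cells overlapped at the low end.

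Sfrp2 (ENSMUSG00000027996, chromosome 3, 83766321 to 83774316), a related Wnt-binding protein, was at 69.5 and 43.5 CPM on the plates in mesenchymal cells and at 7.47 and 3.47 CPM in epithelial cells. Its levels over both plates, 54.2 and 5.53 CPM, differed 9.80-fold, with 9.31-fold and 12.5-fold on the single plates. It was detected in 50 of 78 mesenchymal and 18 epithelial cells (17.1%), and 15 of these 18 cells were tip-like. Unlike Sfrp1, it was thus found in only part of the mesenchyme.

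Frzb (ENSMUSG00000027004, chromosome 2, 80411970 to 80447625), also named Sfrp3, was at 12.2 CPM in mesenchymal and 0.984 CPM in epithelial cells. These levels came from few cells, 4 of 78 mesenchymal cells at up to 345 CPM and 2 epithelial cells, of which 1 held 98.9% of the counts. The 12.4-fold difference ran from 8.76-fold to 63.5-fold between plates, and 3 of the 4 mesenchymal cells were on plate 8B.

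Sfrp5 (ENSMUSG00000018822, chromosome 19, 42197971 to 42202252) had the opposite pattern. It was at 21.2 and 17.7 CPM on the plates in epithelial cells and was detected in 0 of 78 mesenchymal cells, which allows a share of up to 3.85% of cells. The level of 19.5 CPM in the epithelium was 387-fold higher with the mesenchymal cells set as stated for a group without a count. It came from 13 epithelial cells, 12.4% of the class, the highest of which, at 808 CPM, held 36.3% of the counts. In the Nkx lines it was at 0.601 and 0.0929 CPM in mesenchyme, from 2 and 1 cells.

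Among the Dickkopf genes, Dkk2 (ENSMUSG00000028031, chromosome 3, 132085292 to 132180304), a modulator of the LRP coreceptors, was at 83.96 and 22.7 CPM on the plates in mesenchymal cells and at 1.65 and 3.59 CPM in epithelial cells. Over both plates it was at 47.8 and 2.59 CPM, 18.4-fold apart, with 50.9-fold on plate 8A and 6.32-fold on plate 8B. The mesenchymal level was uneven: 31 of 78 cells held a count and 1 of them, at 1299 CPM, held 22.3% of all counts. In the epithelium 15.2% of cells held a count, but only 2 cells reached 10 CPM. Dkk3 (ENSMUSG00000030772, chromosome 7, 112116017 to 112159057), a divergent member of the family that does not share the coreceptor activity of the others, was at 33.8 CPM in mesenchymal and 2.85 CPM in epithelial cells, 11.9-fold apart. It was detected in 17 of 78 mesenchymal cells and 5 epithelial cells.

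Wif1 (ENSMUSG00000020218, chromosome 10, 121033960 to 121100650), a secreted Wnt-binding inhibitor, stayed under 10 CPM in both classes, at 2.05 CPM in mesenchyme from 1 cell and 0.859 CPM in epithelium from 4 cells. Rspo3 (ENSMUSG00000019880, chromosome 10, 29452416 to 29535867), an R-spondin that enhances Wnt signalling, was at 8.90 and 0.283 CPM, a 31.5-fold ratio that was not called because the higher level was under 10 CPM. It was detected in 12 of 78 mesenchymal cells and 1 epithelial cell.

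Axin2 (ENSMUSG00000000142, chromosome 11, 108920349 to 108950783), a scaffold of the β-catenin destruction complex and a widely used readout of canonical Wnt signalling, was at 15.8 and 21.95 CPM on the plates in mesenchymal cells and at 6.37 and 5.03 CPM in epithelial cells. The levels of 19.4 and 5.72 CPM over both plates differed 3.40-fold, with 2.49-fold and 4.36-fold on the plates, the smallest of the called differences. It was detected in 46.2% of mesenchymal and 21.9% of epithelial cells. Lef1 (ENSMUSG00000027985, chromosome 3, 131110471 to 131224356), a TCF/LEF transcription factor whose own gene responds to Wnt, was at 108.8 and 102.7 CPM on the plates in mesenchymal cells and at 0.515 and 0.690 CPM in epithelial cells. Its levels of 105.2 and 0.6002 CPM differed 175.3-fold, with 148.8-fold on plate 8B and 211-fold on plate 8A. Although 24.8% of epithelial cells held at least 1 count of Lef1, the highest of them stood at 8.11 CPM, and 0% of them reached 10 CPM (exact 95% binomial interval up to 3.45%). In mesenchymal cells 42 of 78 did so, 53.8%. For Lef1 the share of epithelial cells with a count thus came from levels under 10 CPM.

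**Figure D2:**
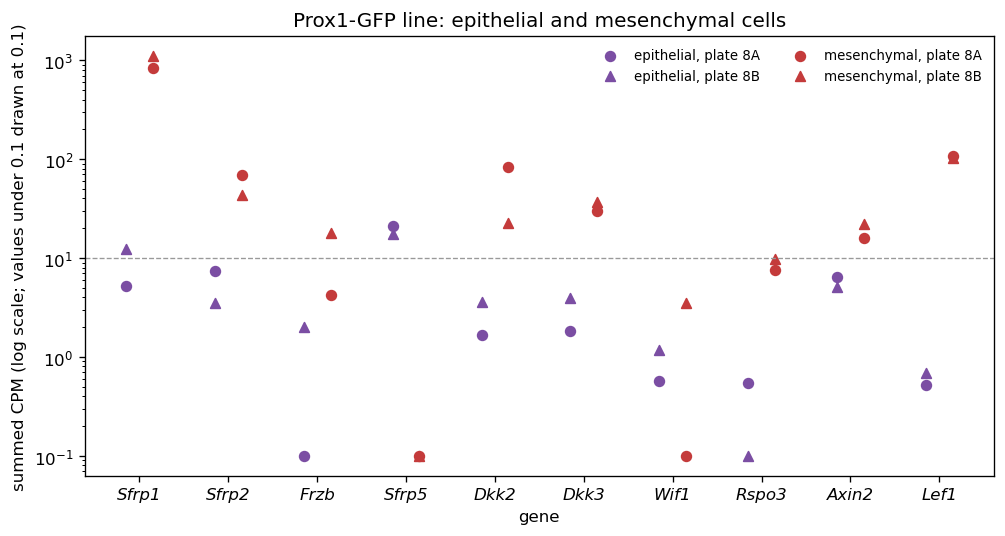
Summed CPM (log scale, values under 0.1 drawn at 0.1) of the 10 genes in epithelial (purple) and mesenchymal (red) cells of the Prox1-GFP line, with circles for plate 8A and triangles for plate 8B and a dashed line at 10 CPM. Both red points lie above both purple points for Sfrp1, Sfrp2, Frzb, Dkk2, Dkk3, Rspo3, Axin2 and Lef1, and below them for Sfrp5.

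The other genes of the pathway were read from a list of 95, of which 51 reached 10 CPM in either class. In mesenchyme 14 were called higher and 8 lower, and their median log2 ratio was 0.49. Higher were the ligand Wnt5a, at 166.2 against 1.88 CPM, the corepressor Tle4, at 28.3 against 0.509 CPM, the feedback inhibitor Nkd2, at 15.8 against 1.06 CPM, the planar polarity gene Prickle2, at 49.8 against 3.89 CPM, and the Wnt receptor Ror1, at 133.96 against 14.3 CPM. Lower were the ligand Wnt7b, without a count in mesenchyme against 49.96 CPM in epithelium, and Rnf43, a ubiquitin ligase that removes Frizzled receptors and is countered by R-spondins, without a count against 23.4 CPM. Also lower were Tinagl1 at 2.03 against 30.8 CPM, the receptor Fzd6 at 1.55 against 10.8 CPM and the cyclin Ccnd1 at 66.99 against 215 CPM.

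**Figure D3:**
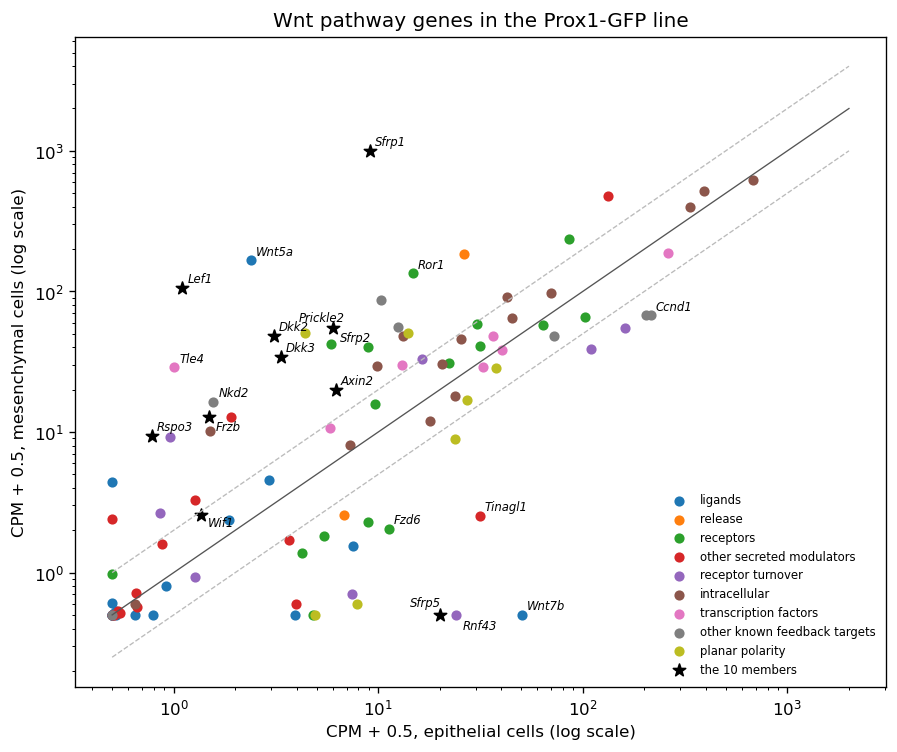
Level in mesenchymal cells (vertical axis) against epithelial cells (horizontal axis) of the Prox1-GFP line, as CPM + 0.5 on log scales, for the 10 genes (stars) and the 95 other Wnt pathway genes (circles, coloured by role). The solid line marks equal levels and the dashed lines a 2-fold difference. Sfrp1, Lef1 and Wnt5a lie farthest above the lines, and Wnt7b, Rnf43 and Sfrp5 farthest below.

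Within the epithelium, the summed level of Sfrp5 was higher in trunk-like and endocrine-like than in tip-like cells, from few cells of each state. The summed level of Axin2 was highest in endocrine-like cells. Tip cells include the progenitors of acinar cells, and trunk cells give rise to ducts and endocrine cells. Sfrp5 was at 1.46 CPM in tip-like, 57.5 CPM in trunk-like and 22.2 CPM in endocrine-like cells, detected in 1 of 56, 7 of 30 and 5 of 19 cells. In trunk-like cells it stood at 43.96 CPM on plate 8A, from 6 of 21 cells, and at 86.2 CPM on plate 8B, all of it from 1 of 9 cells at 808 CPM. In endocrine-like cells it stood at 43.1 CPM on plate 8A and 6.64 CPM on plate 8B. Between tip-like and trunk-like cells, where 3.55% of 10376 genes were called higher in tip-like cells and 5.26% lower, Sfrp5 was called lower in tip-like cells, 39.5-fold. It was the only call among the 2 genes tested, and it was lost when the cell with most counts was left out of each group.

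Axin2 was at 29.2 CPM on plate 8A and 9.52 CPM on plate 8B in endocrine-like cells, against 3.08 CPM in tip-like and trunk-like cells together. Its level over both plates, 17.9 CPM from 9 of 19 cells, was 5.81-fold higher, with 12.03-fold and 2.48-fold on the plates. A single endocrine-like cell held 56.6% of the Axin2 counts on plate 8A, and another 75.6% on plate 8B. In this comparison 13.3% of 11087 genes were called higher in endocrine-like cells and 16.9% lower, and of the 3 genes tested Axin2 was higher, Sfrp1 lower and Sfrp5 not called. Sfrp1 was detected in 0 of 19 endocrine-like cells, which allows a share of up to 15.8%. It was at 10.5 CPM in the other epithelial cells, 55.2-fold higher with the endocrine-like cells set at 3 counts. Both calls were lost without the cell with most counts. The level of 0.663 CPM in trunk-like cells, from 5 of 30 cells, was the lowest Axin2 level of the epithelium. Lef1 stayed between 0.456 and 1.22 CPM in all 3 epithelial states.

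Of 47 other Wnt genes tested in endocrine-like cells, 4 were called higher, namely Celsr3 at 22.8 against 0.440 CPM, Wnt4 at 32.5 against 1.45 CPM, Kremen1 at 51.5 against 8.05 CPM and Dvl1 at 52.7 against 9.79 CPM, and 14 were called lower, among them Fzd2 at 0.0635 against 37.7 CPM, Wnt7b without a count against 60.8 CPM, Myc at 1.21 against 246 CPM, Rnf43 without a count against 28.5 CPM and Ccnd1 at 2.03 against 261 CPM. Between tip-like and trunk-like cells 3 of 49 were higher, Myc at 348 against 19.7 CPM, Tle1 at 17.01 against 3.54 CPM and Fzd4 at 12.8 against 3.41 CPM. Lower in tip-like cells were 6, including the secreted inhibitors Cer1 at 0.0411 against 11.7 CPM and Sostdc1 at 0.240 against 11.9 CPM, Tinagl1 at 12.7 against 90.96 CPM, Tle2 at 21.6 against 69.7 CPM and Prickle1 at 8.15 against 25.8 CPM. Of 14 other secreted modulators listed, 4 reached 10 CPM in either state, and 3 of these were called lower in tip-like cells and none higher. No other role on the list had over 1 call in either direction. Over all genes tested, 3.55% were called higher and 5.26% lower in tip-like cells, and 13.3% and 16.9% in endocrine-like cells. Whether the calls of these other Wnt genes hold without the cell with most counts was not tested.

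Mesothelial cells form the outer epithelial cover of the organ and were compared with mesenchymal cells within each Nkx line. Rspo3 was higher in mesothelial-like cells of both lines, and no other gene of the 10 was called in both. In the Nkx2.5-Cre line Rspo3 was at 68.6 CPM (95% interval 61.6 to 76.2) in 3 of 5 mesothelial-like cells, against 9.41 CPM in 11.3% of mesenchymal cells, 7.29-fold higher. In the Nkx3.2-Cre line it was at 89.95 CPM (85.8 to 94.3) in 19 of 23 cells, against 16.02 CPM in 20.8% of mesenchymal cells, 5.62-fold higher, and 4.89-fold on plate 7B, which held 20 of the 23 cells. Single mesothelial-like cells of that line ran from 0 to 387 CPM with a median of 53.9 CPM, while the median mesenchymal cell held no count and the highest stood at 345 CPM. The groups therefore overlapped, and 73.9% of mesothelial-like cells against 20.2% of mesenchymal cells reached 10 CPM.

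In the Nkx2.5-Cre line, 18.5% of 10384 genes were called higher in the 5 mesothelial-like cells and 33.7% lower, and of 7 genes tested Rspo3 and Axin2 were higher and Sfrp2, Dkk3 and Lef1 lower. In the Nkx3.2-Cre line, 12.3% of 10602 genes were called higher and 12.2% lower, and of 8 tested Rspo3 and Wif1 were higher and Sfrp1 and Dkk2 lower. Called in both lines were 4.8% of 11206 genes as higher and 7.1% as lower, with Rspo3 alone of the 10 higher and none lower. The median log2 ratio of the tested genes was -0.66 and -0.36 in the lines, against -0.22 and 0.01 over all genes.

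Sfrp1 was detected in all 28 mesothelial-like cells, at 608 CPM in the Nkx2.5-Cre line and 241 CPM in the Nkx3.2-Cre line, against 961 and 748 CPM in mesenchyme. The cells of the Nkx3.2-Cre line ran from 79.9 to 636 CPM, within the range of 63.9 to 1975 CPM of its mesenchymal cells, and the ratio of 0.322 was called lower in that line, whereas the ratio of 0.632 in the other was not. Both levels lay between the 8.64 CPM of the epithelium of the Prox1-GFP line and those of the mesenchyme. The epithelial level is from another line, so that line, plate and batch cannot be told apart from class there. Sfrp2 was at 5.14 against 46.2 CPM in the Nkx2.5-Cre line, from 1 of 5 cells, but at 36.7 CPM in both classes of the Nkx3.2-Cre line. Frzb had no count in the 5 cells and was in 1 of 23, and Sfrp5 in none of the 28 cells.

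Dkk2 differed in direction between the lines, at 57.3 against 35.2 CPM in the Nkx2.5-Cre line and 0.141 against 31.7 CPM in the Nkx3.2-Cre line. In the former, 1 of the 5 mesothelial-like cells held 78.96% of its counts. In the latter, 2 of 23 cells held a count, neither at 10 CPM. Dkk3 had no count in the 5 cells and was at 18.6 against 18.4 CPM in the Nkx3.2-Cre line, where it was detected in 3 of 23 cells and 1 of them held 67.98% of the counts. Without the cell with most counts in each group, Dkk3, Axin2 and Lef1 were also called lower in that line. Wif1 was at 11.7 CPM in mesothelial-like cells of the Nkx3.2-Cre line, from 2 of 23 cells, against 2.42 CPM in mesenchyme, and had no count in either class of the Nkx2.5-Cre line.

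Axin2 was at 50.99 against 20.5 CPM in the Nkx2.5-Cre line, with 70.9% of the mesothelial-like counts in 1 cell, and at 7.62 against 12.6 CPM in the Nkx3.2-Cre line. Without the cell with most counts the call in the Nkx2.5-Cre line was lost. Lef1 was at 0.415 against 92.05 CPM in the Nkx2.5-Cre line and at 31.7 against 59.3 CPM in the Nkx3.2-Cre line, where 43.5% of mesothelial-like cells and 42.9% of mesenchymal cells reached 10 CPM. The higher level of Rspo3 in mesothelial-like cells was therefore not matched by a call of Axin2 or Lef1 in the same direction in both lines.

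**Figure D4:**
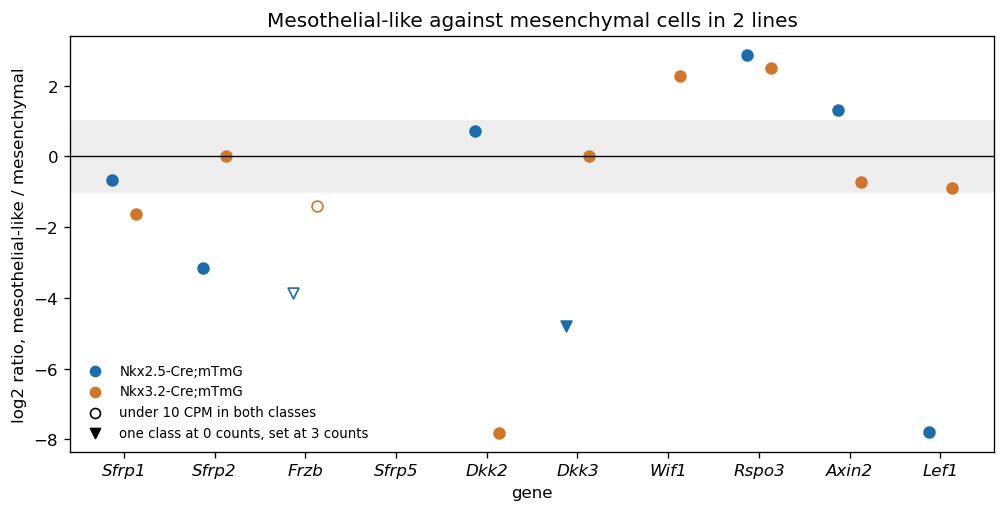
Log2 ratio of summed CPM in mesothelial-like against mesenchymal cells for each gene in the Nkx2.5-Cre;mTmG (blue) and Nkx3.2-Cre;mTmG (orange) lines. The grey band marks less than a 2-fold difference, open symbols genes under 10 CPM in both classes, and triangles a class at 0 counts set at 3 counts. Rspo3 lies above the band in both lines, Dkk2 and Axin2 lie on opposite sides of 0, and genes under 1 CPM in both classes are not drawn.

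The other pathway genes differed in both directions in the mesothelium, with 8 of 52 higher and 26 lower in the Nkx2.5-Cre line and 10 of 54 higher and 15 lower in the Nkx3.2-Cre line. A second R-spondin gene, Rspo1, was higher in both, at 23.1 against 0.143 CPM and 12.8 against 1.32 CPM, as were the ligand Wnt9a, at 25.9 against 1.33 CPM and 49.5 against 2.51 CPM, and the receptor Fzd4, at 43.3 against 4.15 CPM and 88.5 against 9.90 CPM. In the Nkx2.5-Cre line Tnfrsf19 (192.3 against 6.00 CPM) and Wnt2b (15.8 against 0.543 CPM) were also among the largest, and in the Nkx3.2-Cre line Fzd6 (13.2 against 0.123 CPM) and Celsr1 (20.2 against 0.544 CPM). Of the genes called lower, Wnt5a, Ror1 and Ror2 had no count in the 5 mesothelial-like cells against 209, 91.02 and 82.4 CPM in the mesenchyme of the Nkx2.5-Cre line, with Ccnd1 at 0.198 against 88.5 CPM and Fzd3 at 0.593 against 43.9 CPM. In the Nkx3.2-Cre line the largest were Prickle2 at 0.0522 against 55.9 CPM, Nkd2 without a count against 22.8 CPM, Notum, an enzyme that inactivates Wnt ligands, at 0.261 against 18.2 CPM, Myc at 6.84 against 92.6 CPM and Tle2 at 5.69 against 52.97 CPM.

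Mesenchymal cells outside the proliferating cluster were compared between the Nkx2.5 and Nkx3.2-Cre lines, with a call requiring 2-fold over all 4 pairs of plates. None of the 7 genes tested was called, against 1.62% of 10120 genes higher in the Nkx2.5-Cre line and 2.19% lower. Sfrp1 was at 901 and 1075 CPM on the plates of the Nkx2.5-Cre line and at 700 and 829 CPM on those of the Nkx3.2-Cre line, with ratios of 1.09 to 1.54 between plates. Sfrp2 was at 52.3 and 45.7 CPM against 38.04 and 38.2 CPM. For both genes the plates of the Nkx2.5-Cre line lay above those of the Nkx3.2-Cre line, by less than 2-fold.

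Lef1 showed the same order with a wider range. It was at 73.1 and 131.3 CPM on plates 6A and 6B and at 72.2 and 36.2 CPM on plates 7A and 7B, so that the ratio ran from 1.01 to 3.63 with the plates chosen. Axin2 was at 15.3 and 28.8 CPM against 9.11 and 16.6 CPM, with ratios of 0.923 to 3.16. Rspo3 was at 15.3 CPM on plate 6A, 0.776 CPM on plate 6B, 14.8 CPM on plate 7A and 16.4 CPM on plate 7B. Plate 6B thus stood apart for Rspo3, and it held 2 of the 20 splenopancreatic-like cells of its line, the state in which the gene was highest there. The part of this mix of states in the level on plate 6B was not tested. Without plate 6A Rspo3 was called lower in the Nkx2.5-Cre line, and without plate 7A Lef1 was called higher. Dkk2 was at 40.9 against 34.003 CPM and Dkk3 at 15.2 against 18.2 CPM over the lines. Frzb, at 5.71 and 7.45 CPM, and Wif1, without a count in the Nkx2.5-Cre line and at 2.06 CPM in the other, were under 10 CPM. Of 49 other Wnt genes tested, 4 were higher in the Nkx2.5-Cre line, Tnik at 18.5 against 2.15 CPM, Gsk3b at 758 against 286 CPM, Tcf7l1 at 78.6 against 31.3 CPM and Znrf3 at 121.8 against 51.2 CPM, and Tnfrsf19 (4.58 against 19.9 CPM) and Kremen1 (19.5 against 41.9 CPM) were lower.

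Across the mesenchymal states, each set against the other mesenchymal cells of its line and called where every line with at least 5 cells agreed in direction, Sfrp1 was found in nearly every cell. It was at 359 to 1223 CPM in every state and line with at least 5 cells, and was detected in 99.4%, 100% and 98.7% of the mesenchymal cells of the 3 lines. The other genes were patchy. Sfrp2 was higher in M-III-like cells, a state whose markers include Isl1 and Col14a1, Frzb in splenopancreatic-like (M-SpP-like) cells, marked by Nkx2-5 and Tlx1, and Lef1 and Dkk2 were lower in mural-like cells, which express the smooth muscle genes Acta2 and Tagln.

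Sfrp2 was at 250 against 31.03 CPM in the 6 M-III-like cells of the Nkx3.2-Cre line, where 1 cell at 963 CPM held 78.4% of the counts, and at 101.1 against 43.3 CPM in the 16 cells of the Prox1-GFP line, where it was detected in 11 of 16. Among all 11210 genes tested 4.49% were called higher in this state in both lines and 6.44% lower, and of the 8 listed genes tested Sfrp2 was higher and none lower. The call was kept without the cell with most counts in each group, but it was lost with classes from marker lists per cell, with clusters at resolution 1.0 and with a 3-fold limit. Axin2 in the same state was at 43.6 against 13.9 CPM in the Prox1-GFP line and at 10.7 against 12.6 CPM in the Nkx3.2-Cre line, and was not called.

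Frzb was at 39.8 against 4.47 CPM in M-SpP-like cells of the Nkx2.5-Cre line and at 13.8 against 4.15 CPM in those of the Nkx3.2-Cre line, detected in 5 of 20 and 5 of 44 cells, where 0.477% of 10685 genes were called higher and 2.09% lower. These 10 cells were the greater part of the 17 mesenchymal cells of both lines with a count. The call was lost without the cell with most counts. M-SpP-like cells also included 3 cells with immune markers at 100 CPM or more, 1 of them at 9849 CPM. None of the 3 was in the Nkx2.5-Cre line. In the Nkx3.2-Cre line the level of Frzb was 14.3 CPM over the 42 of 44 cells without such markers. Rspo3 was detected in 7 of 20 and 15 of 44 M-SpP-like cells, at 48.2 against 4.35 CPM in the Nkx2.5-Cre line and 12.5 against 17.3 CPM in the Nkx3.2-Cre line, and was not called. Lef1 stood at 11.6 against 102.6 CPM and 43.8 against 65.1 CPM in the same cells.

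Lef1 was at 11.3 against 71.96 CPM in the 36 mural-like cells of the Nkx3.2-Cre line, 6.38-fold lower. It was without a count in the 6 of the Prox1-GFP line against 114.3 CPM, 180.6-fold lower with these cells set at 3 counts. Dkk2 was at 13.5 against 36.5 CPM and without a count against 51.9 CPM. All 6 mural-like cells of the Prox1-GFP line were on plate 8B, where mesenchymal Dkk2 was lower than on plate 8A. The cells they were set against came from both plates. The Dkk2 call was lost with a 3-fold limit and with a minimum of 50 CPM. Among all 10880 genes tested, 1.39% were called higher and 1.88% lower in mural-like cells, and of the 8 listed genes tested these were the 2 called. Axin2 was at 16.2 against 11.7 CPM in the Nkx3.2-Cre line and at 1.69 against 20.98 CPM in the Prox1-GFP line, and Sfrp1 at 713 against 757 CPM and 848 against 1008 CPM. Mural-like cells thus held Sfrp1 at the level of other mesenchymal cells while Lef1 was lower in both lines.

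In the cluster led by Megf10, a cluster that no marker list named, Rspo3 had no count in 15 cells of the Nkx2.5-Cre line and 23 cells of the Nkx3.2-Cre line and was at 0.535 CPM in 10 cells of the Prox1-GFP line, against 10.3, 18.5 and 10.1 CPM in the other mesenchymal cells. This was called lower, as were 1.88% of 11178 genes, while 0.134% were higher and none of the 9 listed genes tested was. The levels of 10.3 and 10.1 CPM were just over the minimum for a call. In the Nkx2.5-Cre line 11 of the 15 cells of this cluster were on plate 6B, where mesenchymal Rspo3 was lower than on plate 6A. The cells they were set against came from both plates, and the part of plate in this call was not tested. Calls in clusters that no marker list named were not put through the alternative settings. The same cluster held Lef1 at 98.7, 107.1 and 150.5 CPM, with at least 1 count in 12 of 15, 16 of 23 and 7 of 10 cells. No gene of the 10 was called in the proliferating, Pdlim3 and Eya4 clusters, of 8 tested in each. The shares of all genes called higher and lower there were 2.38% and 0.346%, 0.0725% and 0.317%, and 0.38% and 2.03%. In the Eya4 cluster the Y-linked genes Uty and Ddx3y were among the leading genes and 58 of 71 cells were of the Nkx2.5-Cre line, and the part of embryo and line in its levels was not tested.

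Of the other Wnt genes, Tnfrsf19, Ror1 and Fzd1 were called higher in M-III-like cells, with Tnfrsf19 at 185.7 against 14.6 CPM in the Nkx3.2-Cre line and 206 against 20.9 CPM in the Prox1-GFP line, and Nkd2 and Ccnd1 were lower. The plates of the Prox1-GFP line disagreed for Fzd1, with ratios of 0.249 and 2.71. Fzd7 was called higher in the Megf10 cluster, at 46.04 against 14.7 CPM, 62.3 against 26.7 CPM and 94.2 against 34.1 CPM in the 3 lines. Notum was lower in M-SpP-like cells, at 1.11 against 13.7 CPM and 2.87 against 23.8 CPM, and together with Tnfrsf19 in mural-like cells, where Notum had no count.

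**Figure D5:**
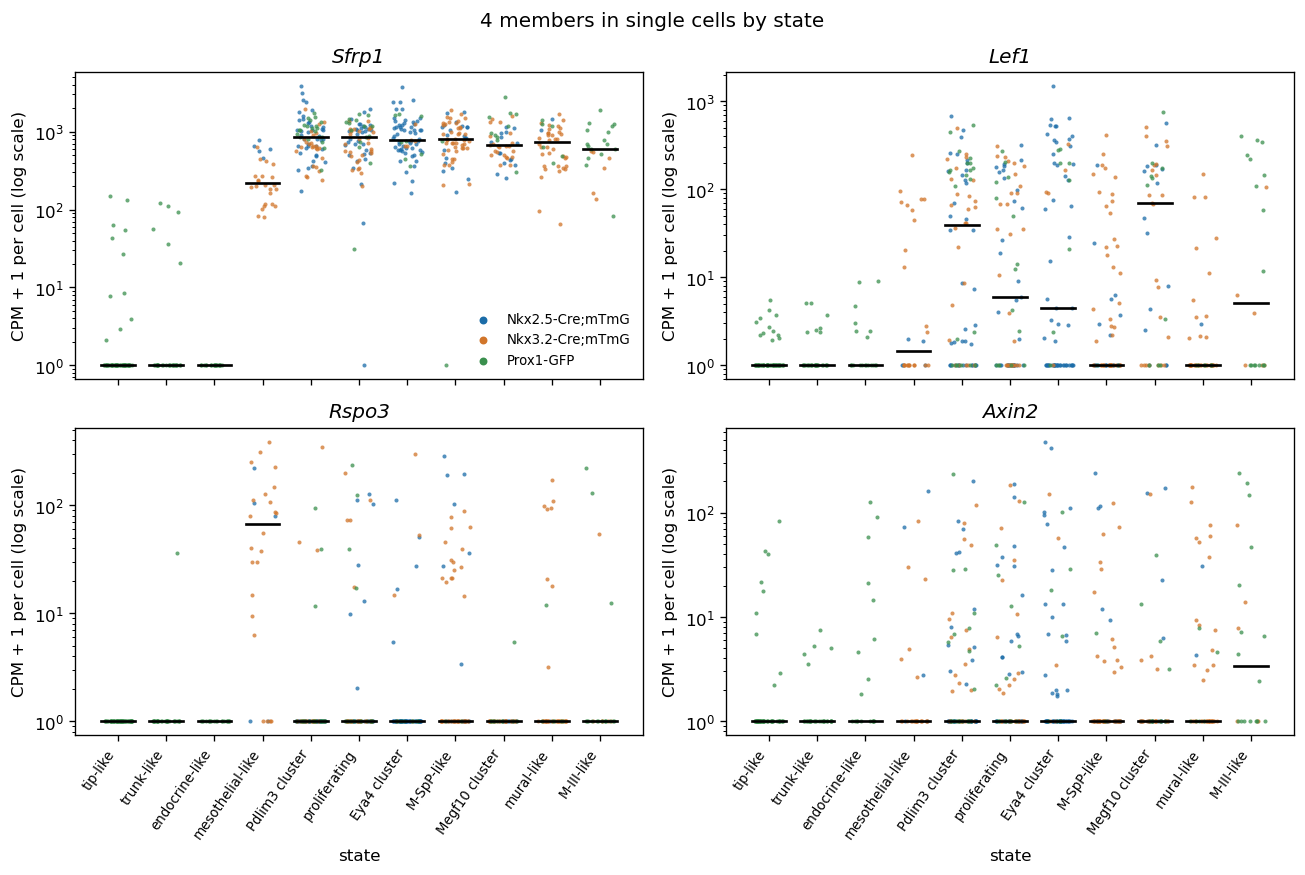
CPM + 1 per cell (log scale) of Sfrp1, Lef1, Rspo3 and Axin2 by state, with 1 point per cell coloured by line and a bar at the median of all cells of the state. Sfrp1 is found in nearly every mesenchymal cell, with medians of 676 to 960 CPM in the lines, and has no count in most epithelial cells, Lef1 stays under 10 in epithelial cells, and Rspo3 has a median above 0 counts in mesothelial-like cells alone.

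Detection of the feedback genes in single cells was compared between cells with and without a given modulator, within a class and line. The correlations were weak, with Spearman's rho from -0.22 to 0.33 in mesenchymal cells, and in sparse counts they are descriptions only. Some kept their sign in the Nkx2.5-Cre, Nkx3.2-Cre and Prox1-GFP lines, with rho of 0.12, 0.12 and 0.11 for Sfrp2 and Axin2, 0.13, 0.07 and 0.14 for Lef1 and Axin2, and 0.10, 0.09 and 0.08 for Sfrp2 and Lef1. Others did not, with rho of -0.16, -0.03 and 0.33 for Dkk2 and Axin2. Among mesenchymal cells with a count of Dkk2, 72.1% of 68 held Lef1 in the Nkx3.2-Cre line against 48% of 100 without Dkk2 (Spearman's rho 0.27 over these cells), whereas rho was 0.07 in both other lines. For Dkk2 and Axin2, rho was 0.33 over 78 cells in the Prox1-GFP line, -0.16 in the Nkx2.5-Cre line and -0.03 in the Nkx3.2-Cre line. Lef1 was found less often in cells with Rspo3 in each line, in 42.1%, 45.7% and 33.3% of cells against 58.4%, 60.9% and 66.7%, with rho of -0.11, -0.12 and -0.22. Cells of a line share plates and batch, and median counts differed little between cells with and without the modulator in these pairs. All mesenchymal states of a line were pooled, so the mix of states enters these values. The part of states or depth in them was not tested.

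Over 34 groups of state by plate with at least 5 cells, levels on the log2(CPM + 1) scale were correlated among the 10 genes and with 14169 genes. Groups of 1 plate share batch and depth, and the values are descriptions. The groups span epithelial, mesothelial-like and mesenchymal states, so differences between these classes enter the values. Correlations within the mesenchyme alone were not computed. The closest pair was Dkk2 and Lef1, with a Pearson correlation of 0.81, followed by Sfrp1 and Lef1 with 0.73, and Sfrp1 and Sfrp5 were opposed at -0.73. The genes most like Sfrp1 were Plagl1 (0.98), Ahnak (0.97) and Zfp57 (0.96), those most like Sfrp5 were Sowaha (0.93), Neurog3 (0.93) and Cldn23 (0.92), and those most like Lef1 were Grik1 (0.91), Hoxa3 (0.90) and Nrk (0.84). Sfrp2 was most like Cachd1, Zfp41 and Hoxb3, with 0.84 to 0.81, and Dkk2 most like Gap43, Vgll3 and Col23a1, with 0.83 for each. For Frzb, Dkk3, Wif1, Rspo3 and Axin2 no gene exceeded 0.71.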

How the data were processed

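Single GFP-positive cells of dorsal pancreas were sequenced with single-end reads of 75 bases. According to the study's methods and the submitters' processing notes, the authors trimmed reads with Trim Galore 0.6.5, quantified transcripts with kallisto on GRCm38 and summed them to genes with tximport, and they deposited 1 table of estimated counts (expected counts, not rounded, without molecular identifiers) per line. Of the values above 0, 36.1% were not whole. Reads shared by related genes are thus split by an estimate.

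Columns were matched to samples by library number. Symbols, positions and merged exon lengths came from GENCODE M21, which named 35866 of 36658 identifiers (0.605% of counts had no symbol). Cells were kept from 1000 detected genes and 100000 counts upwards if no more than 30% of counts were mitochondrial. Of the lines Nkx2.5, Nkx3.2 and Prox1, 173, 191 and 185 cells passed, with median counts of 1056674, 896115 and 808006, so that the depth allows about 1 CPM per count in a cell. They held 0, 0 and 105 epithelial, 5, 23 and 0 mesothelial-like and 168, 168 and 78 mesenchymal cells. Between the Nkx lines 135 and 139 mesenchymal cells outside the proliferating cluster were compared.

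Cells were clustered in Seurat 5.3.0 under R 4.3.3 with log-normalized values, 2000 variable genes, 20 principal components and resolution 1.9, with the 10 genes and the 95 other Wnt genes left out. Clusters were named from marker lists, a cluster without a fitting list after its leading gene. The levels of the marker sums that separate broad classes were set after the clusters were seen. No doublet caller was run. The 9 cells with markers of 2 broad classes were left out in an alternative.

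Counts were added per class, plate and line and divided by total counts (CPM, per 1000000). Poisson and exact Clopper-Pearson intervals are at 95%. Each line is 1 sample, so no test was made, and a call means 2-fold or more on both plates, or in every line for states, with at least 10 CPM in the higher group. Named were the 10 genes and, of the other pathway genes, up to 5 called in each direction with the largest ratios. The 10 genes and the lists were chosen with earlier results of these data known. The calling script was tested on simulated data. Alternatives changed filter, level, scaling, class, fold, minimum, plate and single cells. Cells without a class were not used. Tables were handled with Python 3.11.15.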

Additional observations from a re-analysis of the deposited data

Results flagged for a closer look

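The ratio of a state to the mesenchymal cells of the same line was at least 1.5-fold in opposite directions in 2 lines for 6 pairs of gene and state. Only pairs with at least 10 CPM in either group in every line could be counted. The 80 pairs compared in 2 or more lines include pairs under that level, so the 6 are not a share of 80. With 1 sample per line, none of these differences between lines was tested. Dkk2 in mesothelial-like cells had a ratio of 1.63 in the Nkx2.5-Cre line and 0.00444 in the Nkx3.2-Cre line, and Axin2 a ratio of 2.48 and 0.605. In both cases 1 of the 5 mesothelial-like cells of the Nkx2.5-Cre line held most of the counts, 78.96% for Dkk2 and 70.9% for Axin2.

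Frzb in the Eya4 cluster had a ratio of 0.00382 in the Nkx2.5-Cre line, where no cell held a count, 4.35 in the Nkx3.2-Cre line and 1.42 in the Prox1-GFP line, with 1 positive cell in each of the latter. Rspo3 in M-III-like cells had a ratio of 0.457 in the Nkx3.2-Cre line and 2.98 in the Prox1-GFP line. In the Megf10 cluster the ratios were 0.389 for Dkk2 and 0.312 for Dkk3 in the Nkx2.5-Cre line, 2.40 and 1.65 in the Nkx3.2-Cre line, and 2.15 and 0.717 in the Prox1-GFP line. In the Prox1-GFP line 1 cell of 10 held 94.5% of the Dkk2 counts of that cluster.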

How the results depend on the processing

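No called direction of the 10 genes reversed under any alternative. Calls in clusters that no marker list named were not put through them. For the states and the comparisons within the epithelium, most alternatives were chosen after seeing the data, as was leaving out cells with immune markers. Of 120 shares of cells with a count, taken from 5 counts upwards or after thinning each cell to 100000 counts, 22 moved out of their binomial interval. With 50 CPM in place of 10 CPM, 3 genes stayed higher in mesenchyme than in epithelium (Sfrp1, Sfrp2 and Lef1) and 0 lower. In mesothelial-like cells that minimum left 1 gene lower in the Nkx2.5-Cre line (Lef1), and 1 higher (Rspo3) and 1 lower (Sfrp1) in the Nkx3.2-Cre line. Rspo3 was the 1 gene called higher in the Nkx2.5-Cre line with a 3-fold limit, and in the Nkx3.2-Cre line with the mean of single-cell CPM. Without the cell with most counts in each group Rspo3 was the 1 gene higher in each line, and 5 were lower in the Nkx3.2-Cre line (Sfrp1, Dkk2, Dkk3, Axin2 and Lef1).

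Between the lines, 1 gene was called lower in the Nkx2.5-Cre line without plate 6A (Rspo3) and 1 higher without plate 7A (Lef1). Across the named states, the 2 higher and 2 lower calls became 1 higher (Frzb in M-SpP-like cells) and 6 lower with a class from marker lists per cell, 1 and 0 with clusters at resolution 1.0, which had no mural cluster, 1 and 1 with a 3-fold limit, 1 and 1 with 50 CPM, and 1 higher (Sfrp2 in M-III-like cells) without the cell with most counts.

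In endocrine-like cells the 1 lower call became 0 without cells of mixed markers, the 1 higher call became 0 with a 3-fold limit, and both became 0 with 50 CPM or without the cell with most counts. Without plate 8A, 2 genes were lower (Sfrp1 and Sfrp5), and without plate 8B 2 were higher (Sfrp5 and Axin2) and 0 lower. In tip-like against trunk-like cells the 1 lower call became 0 without the cell with most counts, 2 without cells of mixed markers, 2 without plate 8A (Frzb and Sfrp5), and 2 without plate 8B, with 1 higher (Sfrp2). The cause of these changes was not tested beyond the cells or plates left out. Leaving out cells with immune markers, a stricter filter (544 cells) or a filter on genes only (553 cells) changed no count of calls by over 1.5 times.

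The limits are those of 1 sample per line and of few cells. The mesothelial values of the Nkx2.5-Cre line rest on 5 cells, and genes such as Frzb, Wif1, Dkk3 and Sfrp5 on a handful of cells with many counts each. Calls between mesenchymal and epithelial cells and within the epithelium were made on each plate. Those of mesothelial-like cells and of mesenchymal states were made over a line, and those between the Nkx lines across different plates. Plates are not replicates. No paired analysis was possible because no value comes from a test and the replicate numbers only name cells in accession order.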
